A study of Mus musculus with 6 samples.

Results

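Transcripts of the nuclear-encoded subunits of the respiratory chain and of ATP synthase were measured in murine 10T1/2 cells, a mesenchymal fibroblast-like line, after photodynamic therapy (PDT). Members were taken by symbol from the count table: the Nduf subunits of complex I, Sdha to Sdhd of complex II, the Uqcr genes of complex III, Cox4 to Cox8 of complex IV and the Atp5 genes of complex V, with symbols of pseudogenes left out. This gave 91 of 57180 rows, with 41 in complex I, 4 in complex II, 8 in complex III, 21 in complex IV and 17 in complex V. Ndufa4 and Ndufa4l2 carry complex I symbols but were counted in complex IV, where the protein of Ndufa4 is now placed. Cyc1, Ndufab1 and Cycs fall outside the symbol rule and are given separately, and Atp5po was not analysed here.

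In the respiratory chain, complexes I and II take electrons from NADH and succinate and pass them through ubiquinone to complex III, cytochrome c and complex IV, which reduces oxygen. Complexes I, III and IV pump protons across the inner mitochondrial membrane, and complex V, the ATP synthase, uses the gradient to make ATP. Most subunits are encoded in the nucleus, translated in the cytosol and imported, while a small set of hydrophobic core subunits of complexes I, III, IV and V is encoded in mitochondrial DNA.

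The series holds 6 libraries, 3 from PDT-treated and 3 from PBS-treated cells, and asked how the treatment changes fibroblasts activated with TGF-β. In the PDT group the photosensitiser chlorin e6 was delivered in D4-EV extracellular vesicles directed at midkine (Ce6@D4-EV) and excited by light, which yields reactive oxygen species. The control group was given PBS, and both groups had TGF-β at 5 ng/mL, so no library shows cells without TGF-β. The vesicles, the dye and the light were combined in every PDT library, so their parts cannot be told apart, and groups given each alone were not analysed here.

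The libraries held 88669946 to 99527847 counts in PDT and 83195529 to 86558216 in PBS. Of 9 fibroblast or mesenchymal markers, 8 were well detected (Col1a1 averaged 2428 CPM in PDT and 6025 CPM in PBS) and Thy1 averaged 0.306 CPM in PDT and 0.297 CPM in PBS. Their summed level was 16250 to 17030 CPM in PDT and 25410 to 26610 CPM in PBS, with 7 markers lower in PDT. Some listed markers of leukocytes (Ptprc, Adgre1, Cd3e), epithelium (Epcam), endothelium (Kdr) and skeletal muscle (Myod1, Myog) had 0 counts in every library. Others of these lists had counts in some or all libraries, among them Itgam and Csf1r, Krt18, and Pecam1 and Cdh5. They are part of the summed levels below. The summed level of the leukocyte list was 1.76 to 2.13 CPM in PDT and 1.18 to 1.28 CPM in PBS, with Cd68, a lysosomal protein of macrophages, higher (log2 fold change of PDT over PBS with its SE, 0.74 ± 0.17; edgeR adjusted p = 0.00695). That of the endothelial list was 0.269 to 0.417 CPM in PDT and 0.527 to 1.08 CPM in PBS, with Tek, an angiopoietin receptor, lower (log2 fold change -1.44 ± 0.39; edgeR adjusted p = 0.0164). That of the muscle list was 1.39 to 1.61 CPM in PDT and 5.53 to 6.79 CPM in PBS, with the troponin Tnnt2 lower (log2 fold change -2.05 ± 0.13; edgeR adjusted p = 4.07e-06). That of the epithelial list was 0.334 to 0.567 CPM in PDT and 0.515 to 1.1 CPM in PBS, and Cdh1, at 30 to 57 counts in PDT and 32 to 94 counts in PBS, did not pass. The adipocyte list summed to at most 0.139 CPM in PDT and 0.188 CPM in PBS. Per the labels the libraries are biological replicates. Whether they came from separate cultures is not said, and the p-values then reflect only the spread among these 6 libraries.

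The 5 promoters below show, for each complex, the member with the lowest adjusted p among those called higher that had 1 RefSeq promoter with a match to a motif of a known regulator of respiratory genes. Each runs over the 250 bases before the RefSeq start in build GRCm38.p6, on the minus strand in all 5 cases: Ndufb11 at chrX:20617620-20617869, Sdhd at chr9:50603850-50604099, Uqcrh at chr4:116075071-116075320, Cox6b1 at chr7:30626115-30626364 and Atp5mc3 at chr2:73911327-73911576. Capitals mark matches on either strand to GCGCANGCG (NRF1), CCGGAAG (ETS factors such as GABP), AANATGGCG (YY1) or TNAAGGTCA (ERR, the estrogen-related receptors).
Ndufb11: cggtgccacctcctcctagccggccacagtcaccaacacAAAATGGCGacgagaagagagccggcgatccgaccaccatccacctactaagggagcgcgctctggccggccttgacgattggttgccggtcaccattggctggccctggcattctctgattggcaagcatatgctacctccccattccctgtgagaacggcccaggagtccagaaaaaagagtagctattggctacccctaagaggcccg
Sdhd: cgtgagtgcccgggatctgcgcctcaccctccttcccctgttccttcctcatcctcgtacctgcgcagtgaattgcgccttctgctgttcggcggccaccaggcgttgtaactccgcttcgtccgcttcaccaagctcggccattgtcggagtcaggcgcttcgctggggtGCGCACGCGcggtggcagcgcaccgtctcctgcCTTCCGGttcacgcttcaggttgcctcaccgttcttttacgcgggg
Uqcrh: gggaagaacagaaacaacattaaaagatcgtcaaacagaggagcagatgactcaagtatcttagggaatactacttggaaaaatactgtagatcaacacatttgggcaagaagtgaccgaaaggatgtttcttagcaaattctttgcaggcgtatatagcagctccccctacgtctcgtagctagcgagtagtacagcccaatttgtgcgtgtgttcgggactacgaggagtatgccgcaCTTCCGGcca
Cox6b1: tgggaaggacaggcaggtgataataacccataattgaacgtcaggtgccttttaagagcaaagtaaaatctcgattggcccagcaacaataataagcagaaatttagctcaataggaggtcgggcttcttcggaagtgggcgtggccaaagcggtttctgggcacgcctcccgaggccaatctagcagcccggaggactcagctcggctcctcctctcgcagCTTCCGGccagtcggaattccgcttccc
Atp5mc3: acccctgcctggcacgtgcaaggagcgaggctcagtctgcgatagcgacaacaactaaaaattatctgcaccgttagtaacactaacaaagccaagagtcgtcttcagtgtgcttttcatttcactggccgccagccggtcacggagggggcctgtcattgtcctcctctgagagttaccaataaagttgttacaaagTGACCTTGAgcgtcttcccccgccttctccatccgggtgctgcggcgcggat

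The Ndufb11 promoter had a YY1 match 211 bases before the start. That of Sdhd had an NRF1 match 79 bases and an ETS match 46 bases before the start. Uqcrh and Cox6b1 had ETS matches 10 and 28 bases before their starts, and Atp5mc3 had an ERR match 52 bases before its start. Over the 69 members with a RefSeq promoter, an NRF1 match stood in 21.7%, against 5.86% of the promoters of 27025 genes and 12.3% of 10132 tested protein-coding genes. The ETS motif stood in 17.4% of member promoters, against 7.83% of all and 15.4% of tested genes. YY1 matches stood in 5.8% of member promoters, 1.29% of all and 2.45% of tested genes, and ERR matches in 2.9%, 1.3% and 0.799%. At least 1 NRF1, ETS or YY1 match stood in 11 of 33 promoters of complex I, 2 of 3 of complex II, 2 of 5 of complex III, 2 of 14 of complex IV and 8 of 14 of complex V. A match describes the letters of the window and is no evidence of binding. Members with and without a match had median log2 fold changes of 0.28 and 0.28 for NRF1 and of 0.24 and 0.28 for ETS.

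The summed level of the 91 members was 9862, 9827 and 9114 CPM (counts normalised to the scaled library size) in PDT 1, 2 and 3, against 7928, 8171 and 8179 CPM in PBS 1, 2 and 3. Each PDT library was above every PBS library. The mean sum was 9601 ± 422 CPM in PDT and 8092 ± 143 CPM in PBS (SD, n = 3 each), a ratio of 1.19. As shares of the raw counts, the members took 0.999%, 0.993% and 0.936% in PDT and 0.781%, 0.803% and 0.801% in PBS. These are bulk samples, in which the number of cells of a type and the amount of RNA per cell cannot be told apart.

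Of the 91 members, 84 passed the filter on low counts. Of these 84, 70 rose in PDT, 0 fell and 14 did not pass the test (edgeR quasi-likelihood test, Benjamini-Hochberg adjusted p under 0.05 over all tested genes). Of all 17635 tested genes, 18.7% rose and 17.5% fell. The fall count of 0 among members was also 0 at an unadjusted p under 0.05, and 0 by DESeq2 and limma-voom. The groups did not overlap, with PDT above PBS, for 72 members, against 25.6% of all tested genes, and PDT lay below PBS without overlap for 0 tested members, against 23.4% of all tested genes. The median log2 fold change of the tested members was 0.27, with quartiles of 0.21 and 0.34, and that of all tested genes was 0.01. These are small changes: the median is a 1.21-fold difference, and 3 of the 79 members with a PBS mean of at least 1 CPM had a log2 fold change above 0.5. The count of members that rose was 55 with offsets for transcript length and GC content and lay between 55 and 74 when 1 library was left out.

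The 7 members that did not pass the filter were Ndufa11b, Ndufb11b, Cox6b2, Cox7a1, Cox7b2, Cox8b and Cox8c, and the last 2 with Cox6b2 had 0 counts in all libraries. The 3 PDT libraries were not alike over the members. PDT 3 had the lowest PDT level for 70 of the 79 members with a PBS mean of at least 1 CPM. The median deviation from the PBS mean was 0.29, 0.33 and 0.19 on the log2 scale in PDT 1, 2 and 3. Within PBS, replicate 1 had the lowest level for 56 of the 79. With PDT 3 left out, 74 members rose and the median log2 fold change was 0.31.

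**Figure D1:**
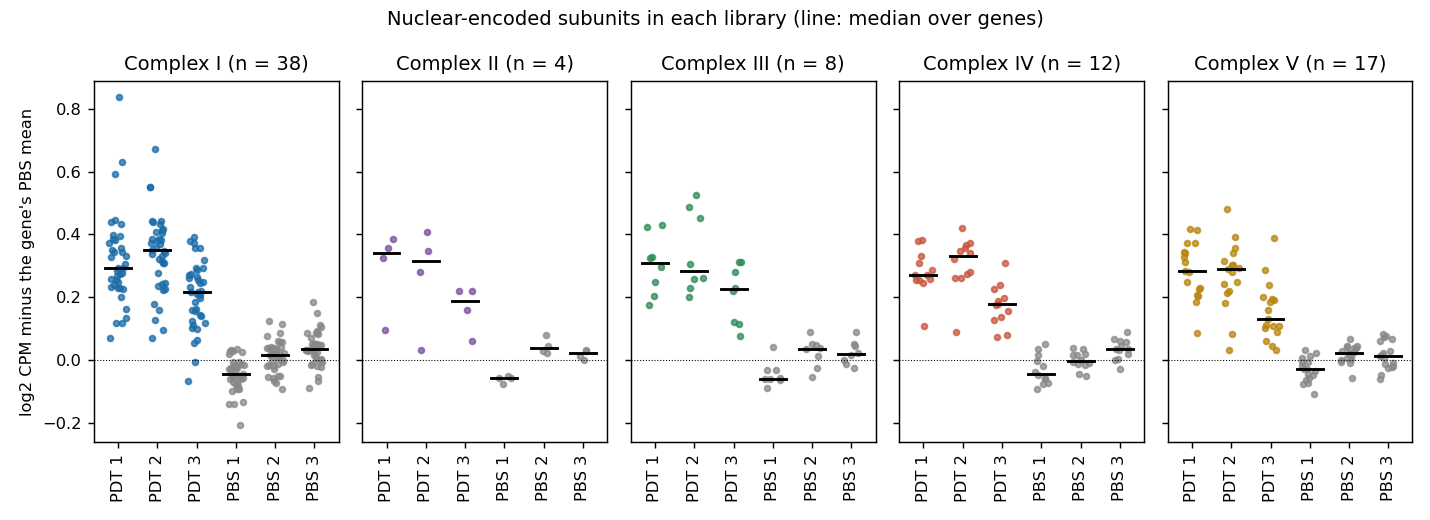
Level of each member in each library, as log2 CPM minus the member's mean over the PBS libraries (y axis), by library (x axis), for the 79 members with a PBS mean of at least 1 CPM; each point is a gene and each line the median over genes. In each of the 5 complexes the medians of the PDT libraries lie above those of the PBS libraries, and PDT 3 lies lowest among the PDT libraries.

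Levels of genes can be compared per transcript length only, here as CPM per kilobase of the longest annotated coding transcript. On that scale the median member of complex IV stood at 211 in PDT and 171 in PBS, of complex V at 152 in PDT and 130 in PBS, and of complex III at 102 in PDT and 80.6 in PBS. Complex II had 70.1 in PDT and 56.4 in PBS, and complex I had 55.8 in PDT and 45.8 in PBS. The order of the 5 complexes was the same in both groups. These medians cover members with a length and a PBS mean of at least 1 CPM, which were 12 of 21 in complex IV and 17 of 17 in complex V. The first place of complex IV rests on this cut. With all 21 counted, its middle member was Cox7a2l, at 105 CPM per kilobase in PDT and 94.8 CPM per kilobase in PBS, below complex V. The highest member was Atp5f1b, the catalytic β subunit of ATP synthase, at 805 CPM per kilobase in PDT and 668 CPM per kilobase in PBS. It was followed by Cox8a, at 403 CPM per kilobase in PDT and 325 CPM per kilobase in PBS. Ndufb2, Atp5mc1, Sdha, Sdhc and Atp5mk have a longest annotated transcript of 2733 to 4715 nt, so their levels per kilobase may be too low. The same lengths were used for the length bins and offsets below.

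Complex I, which oxidises NADH, had 32 of 39 tested members that rose and a median log2 fold change of 0.29. Its 7 nuclear core subunits, which carry the flavin and the iron-sulfur clusters, had 5 that rose and a median of 0.21. Its 29 accessory subunits had 25 that rose and a median of 0.29.

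Ndufa7, an accessory subunit of the matrix arm, had 71.3, 77.0 and 67.3 CPM in PDT, against 52.1, 52.9 and 52.7 CPM in PBS. All PDT libraries were higher than all PBS libraries, and the log2 fold change was 0.45 ± 0.05 (SE; edgeR adjusted p = 0.000135), the lowest adjusted p among members. Ndufa10, another accessory subunit, had 117.8, 113 and 108 CPM in PDT, against 90.6, 88.0 and 89.4 CPM in PBS. No libraries of the groups overlapped, and the log2 fold change was 0.34 ± 0.04 (edgeR adjusted p = 0.000223).

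Ndufv1, the core subunit that binds NADH and the flavin, had 113, 107 and 107.5 CPM in PDT, against 88.0, 88.6 and 82.4 CPM in PBS. It rose by 0.34 ± 0.04 on the log2 scale (edgeR adjusted p = 0.000245). Ndufs7, the core subunit with the iron-sulfur cluster nearest to ubiquinone, had a log2 fold change of 0.37 ± 0.05 (edgeR adjusted p = 0.000297). Ndufs3 and Ndufv2, also core subunits, rose with log2 fold changes of 0.19 ± 0.05 and 0.22 ± 0.04 (edgeR adjusted p = 0.0213 and adjusted p = 0.00256), and with length and GC offsets the call of Ndufs3 was lost (0.09, adjusted p = 0.241).

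Ndufb9, an accessory subunit of the LYR motif family, had 113.8, 113.7 and 100.2 CPM in PDT, against 83.1, 84.1 and 83.6 CPM in PBS. Ndufc1, one of the smallest accessory subunits, had 23.9, 24.3 and 23.9 CPM in PDT, against 18, 18.8 and 18.3 CPM in PBS. Both genes were higher in every PDT library, each with a log2 fold change of 0.39 ± 0.05 (edgeR adjusted p = 0.000369 and adjusted p = 0.000413). The accessory subunits Ndufa2, Ndufa9 and Ndufb2 did not pass, with log2 fold changes of 0.26 ± 0.10, 0.15 ± 0.05 and 0.12 ± 0.07 (edgeR adjusted p = 0.0594, adjusted p = 0.0579 and adjusted p = 0.232). The first 2 of these passed with DESeq2 (adjusted p = 0.013 and adjusted p = 0.0377). Ndufb2 passed in edgeR with length and GC offsets (0.26, adjusted p = 0.0252). Those offsets took its length as 4371 nt, that of its longest annotated transcript, and a shorter one was not tested.

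Ndufs1, the largest core subunit with several iron-sulfur clusters, had 132, 128 and 127 CPM in PDT, against 119, 121 and 126 CPM in PBS. Its groups lay next to each other without overlap, and the log2 fold change of 0.08 ± 0.04 did not pass the test (edgeR adjusted p = 0.117), although it did with length and GC offsets (0.15, adjusted p = 0.02) and with library size only (0.13, adjusted p = 0.018). Ndufs8, the core subunit next to Ndufs7, had a log2 fold change of 0.13 ± 0.06 that did not pass (edgeR adjusted p = 0.133; adjusted p = 0.0106 without PDT replicate 3). Ndufv3, an accessory subunit at the tip of the matrix arm, had 53.5, 54.3 and 48.6 CPM in PDT, against 50.7, 51.7 and 50.3 CPM in PBS. The groups overlapped, and its log2 fold change of 0.03 ± 0.05 was the lowest in complex I (edgeR adjusted p = 0.646).

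Ndufa12, an accessory subunit that in the assembled enzyme replaces the assembly factor Ndufaf2, had 75.5, 57.1 and 51.8 CPM in PDT, against 40.6, 45.7 and 40.7 CPM in PBS. The groups did not overlap, PDT 1 stood well above the other PDT libraries, and the log2 fold change was 0.54 ± 0.12 (edgeR adjusted p = 0.00652). The symbol Ndufa12-ps, which names a pseudogene of it, had 30.5, 52.7 and 45.4 CPM in PDT, against 35.2, 37.9 and 37.6 CPM in PBS, so it was lowest in the library where Ndufa12 was highest. Of their summed counts, Ndufa12 took 71.2%, 52% and 53.3% in PDT 1, 2 and 3, against 53.5%, 54.7% and 52% in PBS 1, 2 and 3. The sums were 106, 109.8 and 97.2 CPM in PDT, against 75.8, 83.6 and 78.3 CPM in PBS, and the log2 ratio of their means was 0.40. How reads matching both were counted is not given in the sources used here, so the split between them is uncertain, also for Ndufa12's own value.

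The second-copy symbols Ndufb4b and Ndufb4c had log2 fold changes of 0.51 ± 0.12 and 0.56 ± 0.13 (edgeR adjusted p = 0.00714 and adjusted p = 0.0075) at 4.38 and 5.55 CPM in PDT, against 3.07 and 3.77 CPM in PBS. Ndufb4 itself rose by 0.37 ± 0.06 on the log2 scale (edgeR adjusted p = 0.00138), and the same doubt on shared reads holds for these 3 symbols. Ndufs6b had the largest fitted value of complex I, 0.60 ± 0.39, at 0.373 CPM in PDT and 0.245 CPM in PBS, and did not pass (edgeR adjusted p = 0.272).

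Complex II, which oxidises succinate in both the citric acid cycle and the respiratory chain, is wholly nuclear-encoded, and 3 of its 4 genes rose. Sdhb, the iron-sulfur subunit, had 76.2, 78.9 and 69.3 CPM in PDT, against 57.2, 60.7 and 60.7 CPM in PBS. The groups did not overlap and the log2 fold change was 0.33 ± 0.05 (edgeR adjusted p = 0.00116). The membrane anchors, which bind heme and ubiquinone, both rose. Sdhc had a log2 fold change of 0.27 ± 0.05 (edgeR adjusted p = 0.00186) and Sdhd of 0.30 ± 0.06 (edgeR adjusted p = 0.00331).

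Sdhc had 136, 132 and 127 CPM in PDT, against 103, 115 and 109 CPM in PBS. Sdhd had 97.4, 94.9 and 83.2 CPM in PDT, against 72.0, 75.7 and 76.1 CPM in PBS. Neither gene had overlapping groups. Sdha, the flavoprotein that holds the succinate site, had 280.2, 268 and 274 CPM in PDT, against 252, 270.5 and 264 CPM in PBS. Its groups overlapped and the log2 fold change of 0.06 ± 0.04 did not pass the test (edgeR adjusted p = 0.25), while with library size only it was 0.11 (adjusted p = 0.0459).

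Complex III, which passes electrons from ubiquinol to cytochrome c, had 8 of 8 members that rose, at a median of 0.26 on the log2 scale. Leaving out PDT replicate 1 or PDT replicate 2 left 5 of the 8. The 5 small subunits had a median of 0.39. Uqcr10, a small subunit of the membrane part, had 44.6, 46.5 and 41.1 CPM in PDT, against 31.7, 34.3 and 33.5 CPM in PBS. The groups did not overlap and the log2 fold change was 0.41 ± 0.06 (edgeR adjusted p = 0.000495), the highest in complex III. Uqcrh, the hinge subunit near cytochrome c1, had 84.6, 86.3 and 76.6 CPM in PDT, against 60.4, 63.6 and 65.3 CPM in PBS. It rose by 0.39 ± 0.05 on the log2 scale (edgeR adjusted p = 0.000439), with no overlap.

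Uqcr11, a small membrane subunit, had 55.8, 64.3 and 55.4 CPM in PDT, against 42.8, 47.4 and 43.9 CPM in PBS. The lowest PDT library stood above the highest PBS library, and the log2 fold change was 0.39 ± 0.07 (edgeR adjusted p = 0.00147). Uqcrb, which lies near the ubiquinone site, had 88.4, 93.8 and 85.3 CPM in PDT, against 76.6, 75.5 and 83.3 CPM in PBS. PDT 3 and PBS 3 were close to each other, and the log2 fold change of 0.18 ± 0.05 (edgeR adjusted p = 0.0189) did not pass with length offsets (0.14, adjusted p = 0.0712).

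Uqcrc1, a core protein of the matrix side, had 176, 173 and 163 CPM in PDT, against 144, 138 and 139 CPM in PBS. It rose by 0.28 ± 0.04 on the log2 scale (edgeR adjusted p = 0.000596). Uqcrc2, the other core protein, had 131, 134 and 123 CPM in PDT, against 109.5, 117 and 116 CPM in PBS. It rose by 0.18 ± 0.04 on the log2 scale (edgeR adjusted p = 0.00985), without overlap, and lost its call without PDT replicate 1 (0.17, adjusted p = 0.051) and without PDT replicate 2 (0.15, adjusted p = 0.0552). The Rieske iron-sulfur protein Uqcrfs1 had a log2 fold change of 0.20 ± 0.05 (edgeR adjusted p = 0.016), which did not pass with length and GC offsets (0.16, adjusted p = 0.0567). Cyc1, the cytochrome c1 subunit that the symbol rule leaves out, had 124, 128 and 116 CPM in PDT, against 87.6, 89.6 and 88.6 CPM in PBS. Its log2 fold change was 0.47 ± 0.04 (edgeR adjusted p = 3.38e-05), above those of the 8 members of complex III. Cycs, cytochrome c itself, had a log2 fold change of 0.29 ± 0.08 (edgeR adjusted p = 0.0173), which did not pass without PDT replicate 2 (0.20, adjusted p = 0.0657).

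Complex IV, cytochrome c oxidase, had 16 tested members and 12 that rose, with a median log2 fold change of 0.26. The 12 comprise all 11 widely expressed subunits, whose median was 0.26, and Cox7a2l. Cox7c, a small membrane subunit, had 141.5, 145.5 and 135 CPM in PDT, against 102, 111 and 113 CPM in PBS. PDT lay above PBS throughout, with a log2 fold change of 0.37 ± 0.05 (edgeR adjusted p = 0.00038), the highest among those 12. Cox8a, another small membrane subunit, had 225, 230.5 and 209 CPM in PDT, against 169.6, 181 and 186 CPM in PBS. It rose by 0.31 ± 0.05 on the log2 scale (edgeR adjusted p = 0.00104).

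Cox4i1, the widely expressed form of the regulatory subunit IV, had 255.5, 259.8 and 242 CPM in PDT, against 214, 212 and 217 CPM in PBS. It rose by 0.24 ± 0.04 on the log2 scale (edgeR adjusted p = 0.00114), with no overlap between groups. Its paralogue Cox4i2, expressed mainly in lung and induced by low oxygen, had 0.0223, 0.179 and 0.139 CPM in PDT, against 0, 0.0734 and 0.135 CPM in PBS. The limit that a count of 0 allows (3 counts) is 0.0298 to 0.0368 CPM per library, so Cox4i2 lay close to it, and its fitted log2 fold change of 0.73 ± 0.96 is not interpretable (edgeR adjusted p = 0.6).

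The paired subunits Cox5a and Cox5b rose with log2 fold changes of 0.24 ± 0.07 and 0.29 ± 0.05 (edgeR adjusted p = 0.0194 and adjusted p = 0.0013), and the call of Cox5a was lost with length and GC offsets (0.17, adjusted p = 0.0774). Cox6a1, Cox6b1, Cox6c and Cox7a2 rose with log2 fold changes of 0.22 to 0.26. That of Cox6a1 did not pass with length and GC offsets (0.10, adjusted p = 0.157). Ndufa4, once assigned to complex I, rose by 0.26 ± 0.05 on the log2 scale (edgeR adjusted p = 0.00365). Cox7b, a small membrane subunit, had 129, 135 and 113.8 CPM in PDT, against 105, 105 and 114.8 CPM in PBS. It was the only member that rose with overlapping groups, since PDT 3 lay just under PBS 3 (log2 fold change 0.22 ± 0.06; edgeR adjusted p = 0.0244; adjusted p = 0.0691 with length offsets). Cox7a2l, which links complexes III and IV in supercomplexes, had 115, 128 and 113 CPM in PDT, against 103, 108 and 109.5 CPM in PBS. Its log2 fold change of 0.15 ± 0.05 was close to the threshold (edgeR adjusted p = 0.0467) and was lost with RLE scaling (adjusted p = 0.061), limma-voom (adjusted p = 0.0501) and length and GC offsets (adjusted p = 0.248).

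None of the 8 isoforms restricted to particular tissues rose, and 3 of them were tested. Cox6a2, a form of heart and skeletal muscle, had 0.702, 0.776 and 0.596 CPM in PDT, against 0.34, 0.624 and 0.552 CPM in PBS. Cox7a1, also a muscle form, had 0.0668, 0.189 and 0.0894 CPM in PDT, against 0.0586, 0 and 0.123 CPM in PBS. Both sets of groups overlapped, and so did those of Ndufa4l2, the hypoxia-induced paralogue of Ndufa4, at 0.142 CPM in PDT and 0.173 CPM in PBS. Cox7b2 had counts in PDT 2 only, at 0.0796 CPM. Cox6b2, Cox8b and Cox8c had 0 counts, which allows at most 0.0298 to 0.0368 CPM per library. Cox6c2 averaged 0.71 CPM in PDT and 0.574 CPM in PBS.

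**Figure D2:**
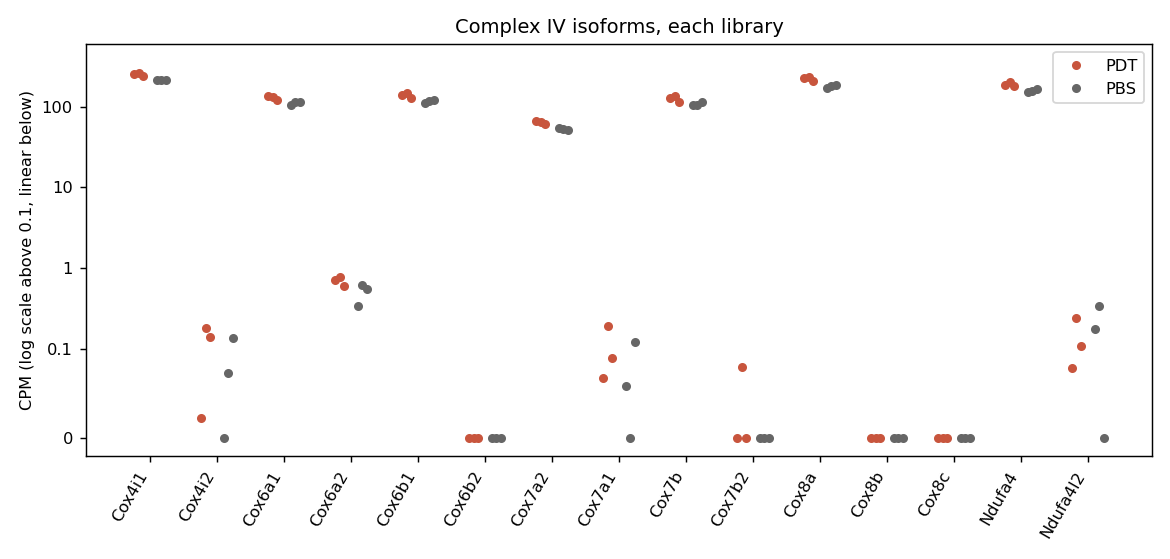
Level in CPM (y axis, log scale above 0.1 and linear below) of complex IV subunits that have isoforms (x axis), with each point 1 library, PDT left of PBS for each gene. The widely expressed forms lie above 50 CPM in every library and the tissue-restricted forms below 1 CPM.

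Complex V, the ATP synthase, had 15 of 17 members that rose, and its median of 0.23 was the lowest of the 5 complexes. Its count was 9 with length and GC offsets and 9 without PDT replicate 1, and its median with the offsets was 0.15. Of the catalytic head, 5 of 5 genes rose. Atp5f1b had 1587, 1579 and 1459 CPM in PDT, against 1284, 1285 and 1269 CPM in PBS. PDT lay above PBS in every library, with a log2 fold change of 0.27 ± 0.04 (edgeR adjusted p = 0.000709). Atp5f1a, the non-catalytic α subunit of the head, had 734, 665.5 and 674 CPM in PDT, against 625, 637 and 622 CPM in PBS. Its groups did not overlap, its log2 fold change was 0.14 ± 0.04 (edgeR adjusted p = 0.0306), and the call was lost with length and GC offsets (0.08, adjusted p = 0.18) and without PDT replicate 1 (0.09, adjusted p = 0.156).

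Atp5f1c, the γ subunit that turns within the head, had 257, 243 and 234 CPM in PDT, against 188, 201 and 207 CPM in PBS. Its log2 fold change was 0.30 ± 0.05 (edgeR adjusted p = 0.00111), with PDT above PBS in every library. Of the other head genes, Atp5f1d and Atp5f1e had log2 fold changes of 0.20 ± 0.05 and 0.21 ± 0.05 (edgeR adjusted p = 0.00711 and adjusted p = 0.0121), and neither passed with length and GC offsets (adjusted p = 0.117 and adjusted p = 0.191). Atp5pb, the subunit b that forms most of the peripheral stalk, had 218, 223 and 199 CPM in PDT, against 170.5, 174 and 177 CPM in PBS. The groups lay clearly apart, with a log2 fold change of 0.29 ± 0.05 (edgeR adjusted p = 0.001).

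The 3 genes Atp5mc1, Atp5mc2 and Atp5mc3 encode the same mature subunit c of the rotating ring behind different import sequences. Atp5mc3 had 264, 260.2 and 242 CPM in PDT, against 203, 198 and 195 CPM in PBS. Its groups were clearly apart and the log2 fold change was 0.36 ± 0.04 (edgeR adjusted p = 0.000152). Atp5mc2 had 180.5, 176 and 149 CPM in PDT, against 137, 147 and 144 CPM in PBS. The lowest PDT library lay just above the highest PBS library, and the log2 fold change of 0.24 ± 0.07 (edgeR adjusted p = 0.0211) did not pass with length and GC offsets (0.09, adjusted p = 0.279). Atp5mc1 had a log2 fold change of 0.23 ± 0.06 (edgeR adjusted p = 0.0129), lost without PDT replicate 1 (0.20, adjusted p = 0.064).

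Atp5me, a small membrane subunit at the dimer interface, had 22.7, 23.7 and 22.3 CPM in PDT, against 16.9, 16.3 and 17.8 CPM in PBS. It rose by 0.43 ± 0.06 on the log2 scale (edgeR adjusted p = 0.000495), the highest in complex V. Atp5pf, coupling factor 6 of the peripheral stalk, had 127, 122.3 and 123 CPM in PDT, against 117, 121.7 and 120.1 CPM in PBS. Its groups lay next to each other without overlap, and its log2 fold change of 0.05 ± 0.04 did not pass (edgeR adjusted p = 0.289; 0.10 and adjusted p = 0.0468 with library size only). Atp5mf, another small membrane subunit, had a log2 fold change of 0.17 ± 0.06 that did not pass (edgeR adjusted p = 0.0591; adjusted p = 0.035 by DESeq2). Atp5if1, which blocks ATP hydrolysis by the enzyme, had 114.6, 114.4 and 103 CPM in PDT, against 89.1, 93.2 and 88.9 CPM in PBS. It rose by 0.29 ± 0.05 on the log2 scale (edgeR adjusted p = 0.00157).

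**Figure D3:**
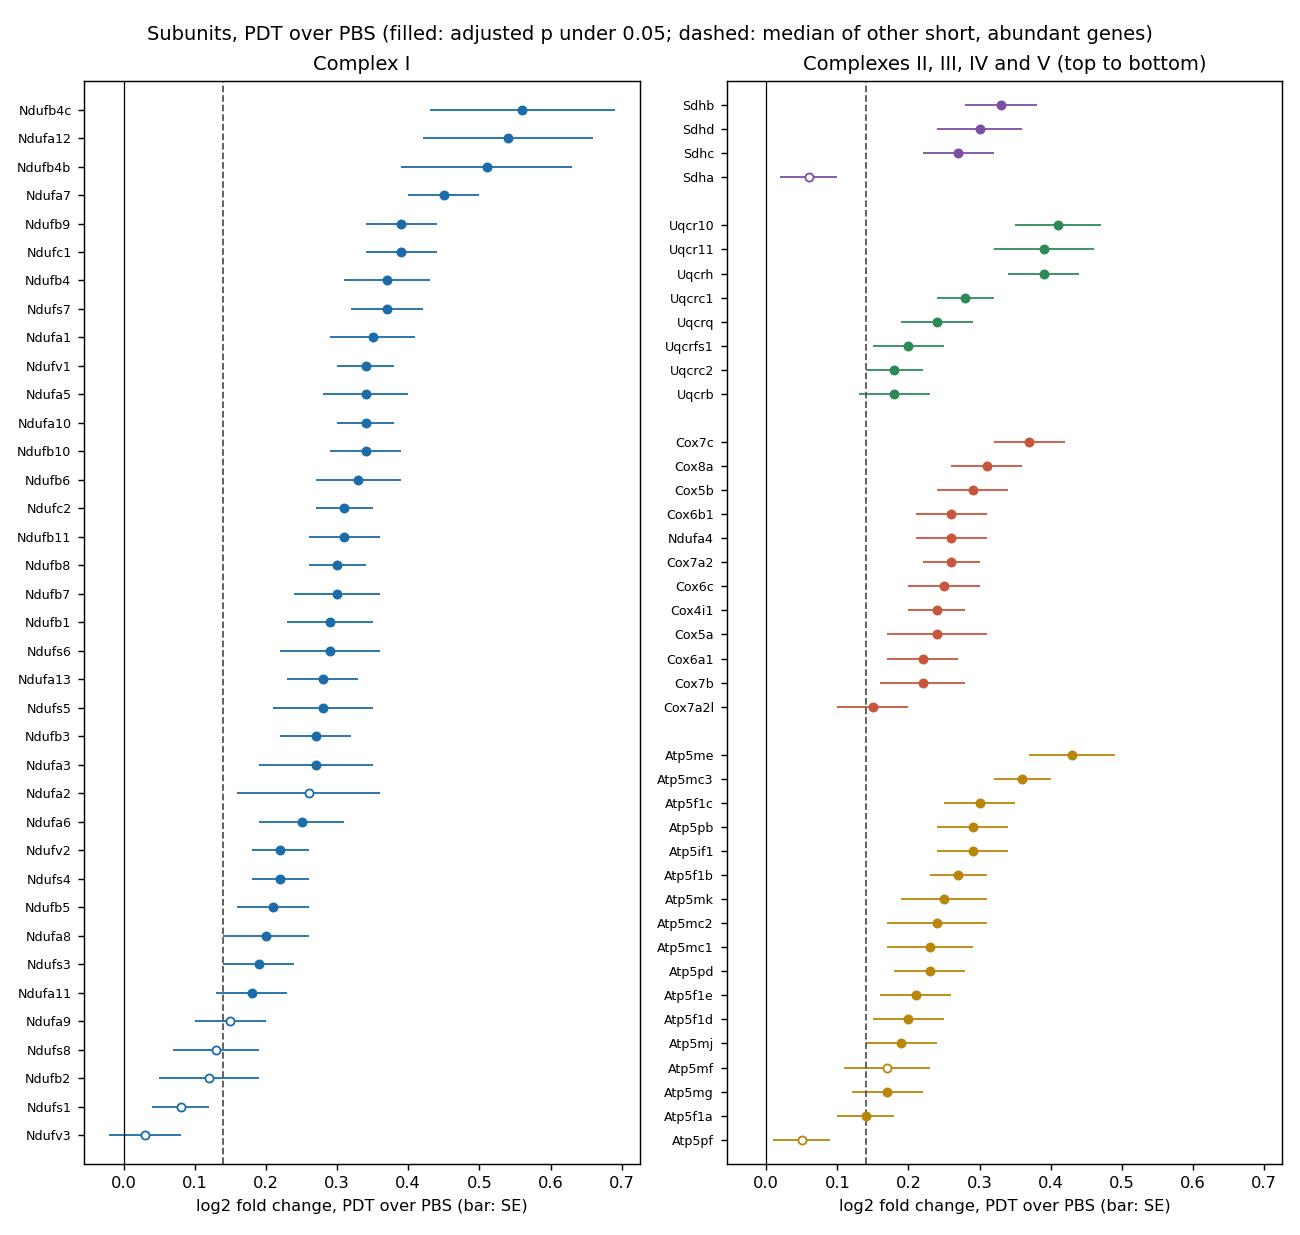
Log2 fold change of PDT over PBS (x axis) with its SE for members with a PBS mean of at least 1 CPM (y axis; 1 member is left out), complex I on the left and complexes II to V on the right. Filled points passed the edgeR test, and the dashed line marks 0.14, the median of other short, abundant genes; Ndufv3 at 0.03 is the lowest and Ndufb4c at 0.56 the highest.

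Set side by side, the 5 complexes had median log2 fold changes of 0.29 (I), 0.29 (II), 0.26 (III), 0.26 (IV) and 0.23 (V), and the ratio of their mean summed CPM was 1.13 in complex II and 1.18 to 1.2 in the others. With length and GC offsets the medians were 0.24, 0.24, 0.26, 0.20 and 0.15. The differences between complexes are small beside the range within each, such as 0.05 to 0.43 in complex V, and were not tested.

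Most members have short transcripts, and short transcripts were higher in PDT in general. The 1720 other tested protein-coding genes with a transcript of at most 1500 nt had a median of 0.13 on the log2 scale, and 32.2% of them rose while 6.05% fell. Of the 598 of these whose log2 CPM averaged 5 or more, 47.2% rose and 7.36% fell, and their median was 0.14. Among the tested members 83.3% rose, with a median of 0.27. The members were not cut by length or level for this share, and 63 of the 83 with a length had at most 1500 nt. In the set of 598 short, abundant genes the groups did not overlap, with PDT above PBS, for 51.7%. Of the 620 other genes with at most 1000 nt, 35.2% rose and the median was 0.16.

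When the coding genes were divided into 10 bins by transcript length, the median of the other genes was 0.14 in the shortest bin (up to 1295 nt) and -0.16 in the longest. The 56 coding members in the shortest bin had a median of 0.28, and 53 of them lay above the bin's median. Over all bins, 75 of 79 coding members with a length lay above the median of the other genes in their bin, and the median excess was 0.14. The excess was 0.15 in complex I, 0.17 in complex II, 0.16 in complex III, 0.12 in complex IV and 0.10 in complex V. Within the members, the log2 fold change had a Spearman correlation of -0.33 with transcript length over 79 genes and of -0.34 with average log2 CPM over 84 genes, all measured in the same 6 libraries.

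When each library was given offsets smooth in length and GC content, 55 members rose and their median log2 fold change was 0.22, against 0.04 for all tested genes and 0.09 for the other short, abundant genes. Under these offsets 19.7% of all tested genes and 30.6% of the short, abundant genes rose. With offsets for length alone, 58 members rose and the median was 0.24, against 0.05 for all tested genes and 0.10 for the short, abundant genes, of which 22.3% and 34.6% rose. These comparisons are descriptions of gene lists, and no test of the difference between lists was made.

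**Figure D4:**
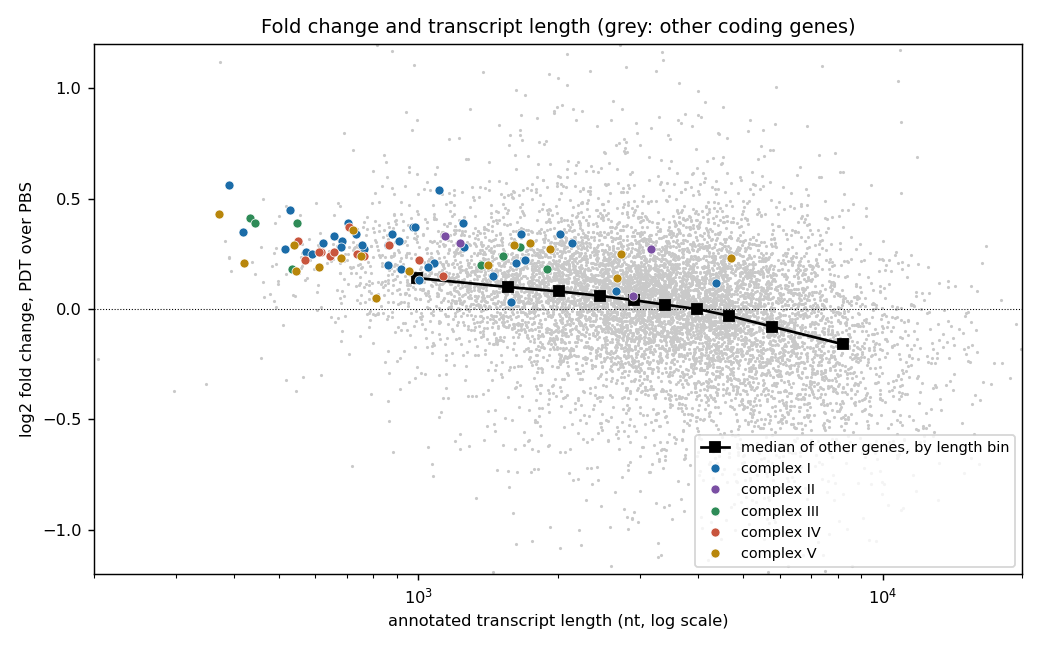
Log2 fold change of PDT over PBS (y axis) against annotated transcript length in nt (x axis, log scale), for members (coloured by complex) and other coding genes (grey points, those whose log2 CPM averaged 3 or more), with squares for the median of the other genes in each of 10 length bins. The members shown are those with a length and a PBS mean of at least 1 CPM. The bin medians run from 0.14 for the shortest to -0.16 for the longest transcripts. Of the tested coding members with a length, a set not identical to the points shown, 75 of 79 lie above the median of their bin.

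The mitochondrially encoded messenger RNAs of the same enzymes went the other way, with values below 0 for each. Of 13, 0 rose and 5 fell by the edgeR test, against 18.7% and 17.5% of all tested genes. The median log2 fold change of the 13 was -0.21. The number that rose was 0 at an unadjusted p under 0.05 and 0 by DESeq2 and limma-voom, and DESeq2 called 8 lower. mt-Nd5, a proton-pumping core subunit of complex I, had 1213, 1115 and 1120 CPM in PDT, against 1518, 1404 and 1567 CPM in PBS. All PDT libraries were below all PBS libraries, and the log2 fold change was -0.38 ± 0.05 (edgeR adjusted p = 0.000352). mt-Nd3, another membrane subunit of complex I, had 91.2, 101 and 92.7 CPM in PDT, against 120.5, 113 and 127 CPM in PBS. Its log2 fold change was -0.34 ± 0.05 (edgeR adjusted p = 0.00107).

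mt-Nd4, mt-Nd4l and mt-Cytb were the other 3 that fell, named after their values were seen, with log2 fold changes of -0.39 ± 0.08, -0.37 ± 0.07 and -0.21 ± 0.06. mt-Co1, the catalytic subunit of complex IV, had a log2 fold change of -0.03 ± 0.05 (edgeR adjusted p = 0.716). With length and GC offsets mt-Nd5 was at -0.03 (adjusted p = 0.795) and mt-Nd3 at 0.11 (adjusted p = 0.412), so these falls did not hold under that setting. All mitochondrially encoded genes together made up 2.24% to 2.34% of the PDT counts and 2.29% to 2.57% of the PBS counts. Some of these genes overlap each other, so their separate counts are uncertain.

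**Figure D5:**
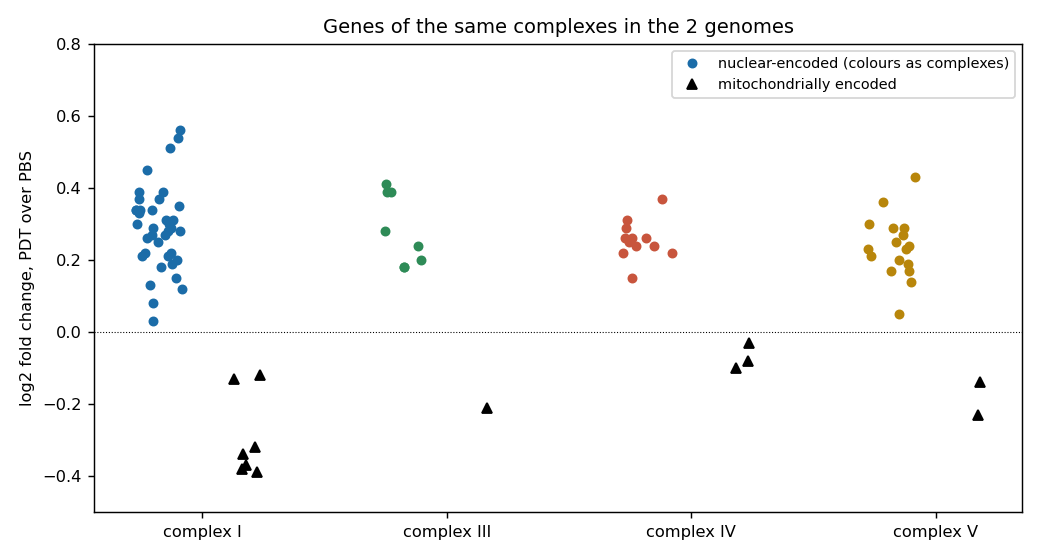
Log2 fold change of PDT over PBS (y axis) of nuclear-encoded members with a PBS mean of at least 1 CPM (circles) and of mitochondrially encoded messenger RNAs (triangles), by complex (x axis). The nuclear genes lie above 0, and the 13 mitochondrial ones lie between -0.39 and -0.03.

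Genes whose products assemble the complexes were taken as a list. Of 63 tested assembly factors 34 rose (54%, against 18.7% of all tested genes) and 1 fell (17.5% of all tested genes fell). The median log2 fold change of these factors was 0.20. By complex, 9 of 18 rose for complex I, 1 of 4 for complex II, 5 of 9 for complex III, 15 of 26 for complex IV and 4 of 6 for complex V. Cox17, the copper chaperone of complex IV, had 52.8, 49.9 and 49.9 CPM in PDT, against 36.9, 37.9 and 37.2 CPM in PBS, a log2 fold change of 0.45 ± 0.04 (edgeR adjusted p = 5.74e-05). Uqcc2, an assembly factor of complex III, had a log2 fold change of 0.42 ± 0.06 (edgeR adjusted p = 0.000684), and Ndufaf4, Sdhaf1 and Atpaf1, assembly factors of complexes I, II and V, had 0.36 ± 0.06, 0.42 ± 0.09 and 0.42 ± 0.08. Higd1a, a hypoxia-induced protein bound to complex IV, was the 1 that fell, to 29.2, 30.0 and 28.7 CPM in PDT, against 39.1, 41.7 and 43.5 CPM in PBS (log2 fold change -0.50 ± 0.05; edgeR adjusted p = 8.94e-05).

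Ndufab1, the acyl carrier protein that is also a complex I subunit, rose by 0.29 ± 0.05 on the log2 scale (edgeR adjusted p = 0.00102). Of 13 genes listed for coenzyme Q, the carrier between complexes I, II and III, 4 rose and 1 fell. The share of the 13 that rose was 30.8%, against 18.7% of all tested genes, and 17.5% of all tested genes fell. Most of the list acts in synthesis, but it also holds the binding proteins Coq10a and Coq10b. Coq10b was the 1 that fell, and Coq10a was among those that rose (log2 fold change 0.31 ± 0.07; edgeR adjusted p = 0.00699). Coq9, a lipid-binding member, had a log2 fold change of 0.31 ± 0.06 (edgeR adjusted p = 0.00193), and Coq10b, a coenzyme Q binding protein, had 16.5, 16.9 and 16.3 CPM in PDT, against 23.8, 24.8 and 26.3 CPM in PBS (-0.59 ± 0.06; edgeR adjusted p = 6.75e-05).

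Of 14 nuclear regulators of respiratory genes, 3 rose (21.4%, against 18.7% of all tested genes) and 2 fell (17.5% of all tested genes fell). As a list they stood near the background, and those that passed are named because they are few. Esrra, the receptor that binds the ERR motif, had 54.9, 55.6 and 54.0 CPM in PDT, against 41.8, 39.1 and 40.4 CPM in PBS. It rose by 0.44 ± 0.04 on the log2 scale (edgeR adjusted p = 5.8e-05). Its coactivators Ppargc1a and Ppargc1b had lower levels, at 204 to 311 counts per library in PDT and 87 to 109 in PBS, with log2 fold changes of 1.04 ± 0.16 and 1.11 ± 0.22 (edgeR adjusted p = 0.000704 and adjusted p = 0.00337) at 2.40 and 2.60 CPM in PDT, against 1.16 and 1.21 CPM in PBS. Gabpa, the DNA-binding subunit of GABP, had 77.9, 78.6 and 79.5 CPM in PDT, against 102, 102 and 110.1 CPM in PBS. It fell by 0.41 ± 0.04 on the log2 scale (edgeR adjusted p = 6.67e-05), and Yy1 fell by 0.17 ± 0.04 (edgeR adjusted p = 0.0159). Nrf1, the factor of the NRF1 motif, had a log2 fold change of 0.09 ± 0.06 that did not pass (edgeR adjusted p = 0.283), and Tfam, the activator of mitochondrial transcription, had 0.02 ± 0.04 (edgeR adjusted p = 0.761).

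Of 17 tested genes for general mitochondrial mass, 13 rose (76.5%, against 18.7% of all tested genes), with a median log2 fold change of 0.20. Among them, the chaperone Hspd1 rose by 0.35 ± 0.04 and the inner membrane scaffold Phb2 by 0.30 ± 0.04 on the log2 scale (edgeR adjusted p = 0.00028 and adjusted p = 0.000216). Other large families were set beside the members, and of their tested genes 46 of 78 mitochondrial ribosomal, 24 of 47 proteasome and 71 of 83 cytosolic ribosomal ones had transcripts of at most 1500 nt. Of 78 mitochondrial ribosomal protein genes 47 rose (60.3%; median log2 fold change 0.21), of 47 proteasome genes 31 rose and 2 fell (66%; 0.15), and of 83 cytosolic ribosomal protein genes 33 rose (39.8%; 0.16). The part of transcript length, GC content and library composition in the members' change was not tested beyond the values given.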

How the data were processed

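The authors deposited 1 table of whole-number read counts, not normalised, with a row for each gene symbol and a column for each of the 6 samples. The labels' protocols state rRNA depletion and a directional library kit. The submitters' processing notes name cutadapt 4.6, STAR 2.7.11b and GRCm39. How these were set, which counter and annotation were used, whether strand was used and how multi-mapping reads were handled is not given in the sources used here, so counts of genes with near-identical copies or overlaps are uncertain.

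Groups came from the labelled treatment. Genes were filtered with filterByExpr at a minimum count of 10, which left 17635, scaled by TMM and tested in edgeR 4.0.16 (R 4.3.3) by its quasi-likelihood test on group alone, with Benjamini-Hochberg adjustment over all tested genes at 0.05. SE is the size of the log2 fold change over the square root of F. CPM used TMM-scaled library sizes, and the common biological coefficient of variation was 10%. Totals were 83195529 to 99527847 counts, and floors of 3 counts cover counting error only. Each pair of libraries differed by more than sampling noise (lowest chi-square over its degrees of freedom 11.2), so none was taken as a copy.

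Length and GC content came from the longest protein-coding GENCODE M21 transcript (GRCm38) by symbol or synonym, or the longest of any kind where a gene had no coding one (5 members), for 94.3% of tested genes and 89 of 91 members, and promoters from RefSeq on GRCm38.p6, which matched 69 members. This build differs from that of the counts and was used for gene properties and sequence only. Offsets were smooths fitted with mgcv 1.9.3.

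Named members were, per complex, the 3 called with the lowest adjusted p and the highest and lowest log2 fold change, the 4 Sdh genes, fixed isoform and core subunit sets, and up to 2 called genes per list. Other genes were named after their values were seen. Single values of 1 member and 1 marker are not reported here. The members, lists and tests were chosen with earlier results of these data known. The edgeR procedure was also run on simulated counts that held no shift tied to transcript length or GC content. That run does not bear on such shifts. Alternatives were DESeq2 1.42.0, limma-voom (limma 3.58.1), scaling by RLE or by library size only, no or a stricter low-count filter (10 counts in 3 samples and 1 CPM), scaling without mitochondrial, rRNA and histone genes, length and GC offsets, a replicate block, leaving out each library, Ndufa4 homologues in complex I and a limit of 1000 nt for short transcripts.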

Additional observations from a re-analysis of the deposited data

How the results depend on the processing

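The number of members that rose was 69 with RLE scaling, 77 with library size only (when the median of all tested genes was 0.06), 73 with DESeq2, 69 with limma-voom, 66 without the low-count filter, 58 with length offsets, 55 with length and GC offsets and 51 with the replicate block and these offsets. Leaving out 1 library gave 55 to 74 members, 28 to 35 in complex I, 3 in complex II, 5 to 8 in complex III, 9 to 12 in complex IV and 9 to 16 in complex V, and the count of members that fell was 0 under every setting run. Complex V had 9 members that rose with length and GC offsets and 9 with the replicate block and these offsets, the median of complex III was 0.31 on the log2 scale with library size only, and the share of short transcripts that rose was 21.4% with length and GC offsets and 19.8% with the replicate block and these offsets. Leaving out 1 library gave a share of 21.5% to 37.2%. All genes that fell numbered 1968 with the replicate block and offsets, 2125 with the offsets alone and 2517 with library size only, where 4290 rose. No member that rose in the main fit changed direction under the settings run. mt-Nd3 did, at 0.11 with length and GC offsets and 0.10 with the replicate block and these offsets. Same-numbered samples did not deviate together (correlations of -0.012, 0.014 and 0.005, against -0.027 to 0.024 for different numbers). These values cannot tell whether same-numbered samples were handled as pairs. With the replicate block 71 members rose. Placing the Ndufa4 homologues in complex I gave 33 members that rose there and 11 in complex IV. The causes of these shifts were not tested. With 3 samples a group, the differences of Sdha and Ndufv3 did not pass the threshold in the main fit. Whether differences of that size can be detected was not tested.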

Other observations

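A pair of genes of the inner mitochondrial membrane machinery stood out in 1 PBS library, and both were singled out after their values were seen. Phb, a partner of Phb2, had 66.8, 63.9 and 59.3 CPM in PDT, against 46.7, 49.5 and 29.3 CPM in PBS 1, 2 and 3. Timm23, the channel subunit of the inner membrane import machinery, had 71.1, 72.2 and 68.0 CPM in PDT, against 60.1, 61.6 and 89.1 CPM in PBS 1, 2 and 3. Phb was thus lowest and Timm23 highest in PBS 3, while PBS 1 and PBS 2 lay close together for both genes.

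Among pseudogene symbols of the same families, which the symbol rule leaves out, Cox5b-ps had 19.6, 19.2 and 18.2 CPM in PDT, against 16.6, 15.9 and 16.0 CPM in PBS. Its log2 fold change of 0.23 ± 0.06 (edgeR adjusted p = 0.0121) stood beside 0.29 ± 0.05 for Cox5b. Ndufab1-ps and Atp5pb-ps, at 0.935 and 2.35 CPM in PBS, had log2 fold changes of 0.45 ± 0.19 and 0.22 ± 0.15 that did not pass (edgeR adjusted p = 0.0949 and adjusted p = 0.289). AA467197, also known as a homologue of Ndufa4, averaged 0.0443 CPM in PDT and 0.0518 CPM in PBS and was not tested.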
